A study of Homo sapiens with 5 samples.

Results

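The cells described here are the EMX2-positive cells of D10_XAV939, a culture of WA09 human embryonic stem cells that had received XAV939 at 10 μM together with dual SMAD inhibition (dSMADi) until day 10 of differentiation toward gonadotropin-releasing hormone (GnRH) neurons. They were chosen by their own readout. A cell counted as EMX2-positive when it had at least 2 unique molecular identifiers (UMIs) of EMX2, 10000 or more UMIs in all, 3000 or more genes, less than 10% of UMIs from mitochondrial genes and fewer than 20 UMIs of the neuronal gene STMN2. There were 654 such cells among the 2279 cells of D10_XAV939 that met the limits on UMIs, genes, mitochondrial share and STMN2, among 2638 barcodes of this condition and among 44007 barcodes of the whole series. They were set against the 1269 cells of the same condition with 0 UMIs of EMX2, called EMX2-zero cells, and the 356 cells with 1 UMI were kept apart.

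A set of 5 conditions was measured in 1 droplet run, each marked with its own cell multiplexing oligo. D0 was undifferentiated, D5_dSMADi and D10_dSMADi had received dSMADi alone for 5 and 10 days, and D5_XAV939 and D10_XAV939 had received dSMADi and XAV939 for the same times. All were wild-type WA09, which is 1 line, and the labels call the cell type neural progenitor. Each condition was 1 culture with no replicate, and all 5 were pooled in 1 library, so no difference was tested. The cells that met the limits in D10_XAV939 held 71728933 UMIs, and 25777230 of these were in the EMX2-positive cells and 34894045 in the EMX2-zero cells.

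EMX2 is a homeobox transcription factor of the dorsal telencephalon, where it takes part in patterning the cortex and the hippocampal region, and it is among the genes that respond to Wnt signals from the cortical hem. XAV939 inhibits tankyrase, which stabilizes AXIN and lowers canonical Wnt/β-catenin signaling. The dSMADi inhibitors block BMP and Activin/TGF-β signals and turn pluripotent cells into anterior neural progenitors. EMX2 (ENSG00000170370) lies on the plus strand at chr10:117542445-117549546 in GRCh38, and its antisense gene EMX2OS on the minus strand at chr10:117473215-117545068 overlaps it.

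Short stretches of sequence show which motifs lie before the RefSeq start of EMX2 and of a few of the genes named below. GENCODE starts some of these genes earlier than RefSeq does, so the stretches of EMX2, MGST1 and TUBA1C lie inside the gene as GENCODE draws it, and that of CDKN3 reaches into it. In the 250 bases before the RefSeq start (GRCh38.p14), TAATTA, the core bound by many homeodomain proteins, was in 4.49% of 27305 promoters, and CTTTGA, the core bound by TCF and LEF factors, read on both strands, was in 11.4%. EMX2 had 1 TAATTA, 30 bases before its RefSeq start, and 0 CTTTGA. Each line below gives 30 bases on the gene's own strand with the motif in capitals; the first 3 hold TAATTA and the last 2 hold CTTTGA as its complement.
EMX2, chr10:117542704-117542733, plus strand: tgatccccgcacTAATTAggctcatgaact
MGST1, chr12:16347575-16347604, plus strand: acgtgggagggcTAATTAacaggagattaa
TUBA1C, chr12:49227896-49227925, plus strand: caatctgtcaaatcTAATTAaagtagaaga
SP8, chr7:20786919-20786948, minus strand: ctccgcggcactTCAAAGccggagagggag
CDKN3, chr14:54396826-54396855, plus strand: cccgcgcgtcttTCAAAGgtcttctaggaa
Promoters were on hand for 8 of the 12 genes with the largest higher ratios described below, and 0 of these held either motif. Of 6 of the 12 genes with the largest lower ratios, 2 held TAATTA and 2 held CTTTGA.

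With XAV939, EMX2 was low but above its level in undifferentiated cells at day 5, and was found with 2 or more UMIs in 28.7% of cells at day 10. Over the cells that met the limits, its level, in UMIs scaled to 1000000 UMIs of the group (CPM), was 1.39 CPM at D0, with an exact 95% Poisson interval of 1.14 to 1.68, then 5.36 CPM in D5_XAV939 (4.89 to 5.86) and 44.3 CPM in D10_XAV939 (42.8 to 45.9). Without XAV939 it was 46.5 CPM at day 5 (45.1 to 48.0) and 60.7 CPM at day 10 (59.2 to 62.3). The 2 conditions at day 10 thus lay nearer each other than the 2 at day 5. At D0 the 1102 cells held 108 EMX2 UMIs in all, at a median depth of 67199 UMIs. In D5_XAV939 the 2830 cells held 478, at a median depth of 26673 UMIs. Stray EMX2 RNA in the shared run was not estimated, so these low levels are given without that correction. EMX2-positive cells by the same rule were 13 of 1102 cells at D0, 87 of 2830 in D5_XAV939, 936 of 2423 in D5_dSMADi and 1241 of 2629 in D10_dSMADi, against the 654 of 2279 in D10_XAV939 (28.7%, exact Clopper-Pearson interval 26.8 to 30.6). In the protocol without XAV939, 77.2% of cells at D22, 80.2% at D24 and 70.4% at D26 had at least 2 EMX2 UMIs, at lower depth per cell and in separate runs. These cells were kept by the study's own limits, with a lower floor of UMIs and no limit on STMN2. Cells high in STMN2 were thus counted too. In the paper's protocol, FGF8, a freeze and thaw, and the Notch inhibitor DAPT came between day 10 and D22. These shares are therefore not by the same rule.

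**Figure D1:**
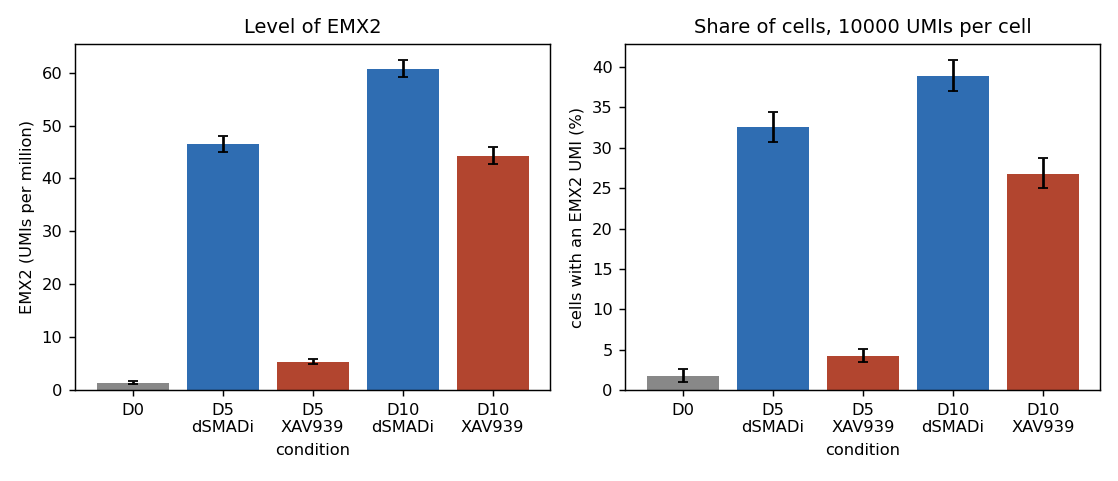
EMX2 in the 5 tagged conditions: on the left its level in CPM with exact Poisson intervals, on the right the percent of cells with at least 1 EMX2 UMI after every cell was reduced to 10000 UMIs, with exact binomial intervals. Bars with XAV939 are red, those with dSMADi alone blue and D0 gray, and D10_XAV939 stood at 44.3 CPM and 26.8% of cells against 5.36 CPM and 4.24% in D5_XAV939.

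The cells also differ in how many UMIs each gave, so every cell was reduced at random to 10000 UMIs and EMX2 was counted again. The share with any EMX2 UMI was then 26.8% in D10_XAV939, 38.9% in D10_dSMADi, 32.5% in D5_dSMADi, 4.24% in D5_XAV939 and 1.72% at D0. D0 stands for cells that should lack EMX2, with a median of 67199 UMIs per cell before reduction against 25643 in D10_XAV939. EMX2 was spread less evenly over cells with XAV939 than without it at day 10. The variance of the reduced EMX2 count over its mean was 2.01 in D10_XAV939 at a mean of 0.473 UMIs and 1.64 in D10_dSMADi at a mean of 0.641, where a value of 1 is that of counting error alone. It was 1.12 in D5_XAV939, 1.33 in D5_dSMADi and 0.984 at D0, but a low mean draws it toward 1, and the means there were 0.0463, 0.462 and 0.0172, so the conditions at day 5 were not compared.

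Among the 654 cells, EMX2 ranged from 2 to 21 UMIs with a median of 4. There were 193 cells with 2 UMIs, 222 with at least 5 and 33 with at least 10, and all 654 together held 88.8% of the EMX2 UMIs of the condition. At the edge of the rule, the 193 cells with 2 UMIs and the 356 cells with 1 UMI had a median of 27305 and 26534 UMIs in all. FEZF2, a forebrain factor described below, was at 142.0 CPM with 0 EMX2 UMIs, 173.3 with 1, 181.6 with 2 and 206.7 over all EMX2-positive cells. Such an order did not hold for every gene: the contractile gene TAGLN was at 515.6, 344.2, 149.5 and 178.6 CPM, and DMRTA1, a factor of cortical progenitors, at 78.4, 110.4, 107.1 and 124.2 CPM.

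The groups differed in depth. The median EMX2-positive cell had 30474.5 UMIs and 6140.5 genes, and the median EMX2-zero cell 23947 UMIs and 5459 genes, while the median mitochondrial share was 2.28% in both. Over 5 bins of depth with about equal numbers of EMX2-positive cells, the share that was EMX2-positive went from 22.1% (131 of 594) at 10583 to 19498 UMIs to 55.7% (131 of 235) above 50114 UMIs. The EMX2 level did not follow the same order, with 56.7 CPM in the shallowest bin, 39.5 CPM in the middle bin and 41.3 CPM in the deepest. For this reason the ratio of each gene was also taken with the EMX2-zero cells weighted to the depth bins of the EMX2-positive cells, called the depth-weighted ratio. Ratios and counts not called depth-weighted are of summed UMIs.

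Cells were assigned to conditions by their multiplexing oligo, so that of D10_XAV939 led in every cell. Its median share was 95.4% in EMX2-positive and 94.6% in EMX2-zero cells, with a lowest of 53.8% and 71.7%, and the oligo of D10_dSMADi had a median share of 1.29% and 1.55%. By the same assignment the 5 tagged conditions shared 0 cell barcodes. A doublet score over 0.25 was found in 22 of the EMX2-positive cells (3.36%) and in 18 of the EMX2-zero cells (1.42%), and doublets stayed in for the values given.

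Few genes differed by 1.5-fold or more between EMX2-positive and EMX2-zero cells. Of 3372 genes with at least 50 CPM in either group, 9 were at least 1.5-fold higher in the EMX2-positive cells (0.267% of the genes) and 8 were at least 1.5-fold lower (0.237%). When depth-weighted, 8 were higher and 13 lower, and with each cell reduced to 10000 UMIs, 14 were higher and 24 lower. By the rank that also took depth into account, the 12 most different genes on the higher side were DLL1, TLE1, DMRTA1, SOX3, H1F0, FEZF1, FEZF2, LINC01551, FEZF1-AS1, SYNE2, PCDH19 and SOX1. Of these, FEZF2, LINC01551, FEZF1-AS1 and SOX1 lay just under 1.5-fold by summed UMIs, and not every gene past 1.5-fold higher was among the 12. On the lower side, TAGLN, ACTA2, MYL9 and TPM2 of the contractile cytoskeleton came first, together with TNFRSF12A, the receptor of the cytokine TWEAK.

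DLL1, a ligand that activates Notch on neighboring cells, was at 58.5 CPM in EMX2-positive cells (55.6 to 61.5) and 32.7 CPM in EMX2-zero cells (30.8 to 34.7). Its log2 ratio was 0.84 (0.73 to 0.95), and 0.96 when depth-weighted, the largest of the genes with at least 50 CPM. In cells reduced to 10000 UMIs, 39.1% of EMX2-positive and 25.7% of EMX2-zero cells had a DLL1 UMI, against 1.36% at D0. The groups therefore overlapped widely in single cells.

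The transcription factors followed. FEZF2, a zinc-finger repressor of the forebrain and later of deep-layer cortical neurons, was at 206.7 CPM against 142.0 CPM, a log2 ratio of 0.54 (0.49 to 0.60). DMRTA1, a doublesex-related factor of cortical progenitors, was at 124.2 against 78.4 CPM, with a log2 ratio of 0.66. A UMI of FEZF2 was in 74.5% of EMX2-positive and 63.0% of EMX2-zero cells at 10000 UMIs per cell, and one of DMRTA1 in 65.6% and 49.3%. FEZF1, the relative of FEZF2, was at 59.2 against 39.2 CPM, and FEZF1-AS1, which lies over it on the other strand, at 65.2 against 46.3 CPM; how strand was used in the counting is not given in the sources used here, so these overlapping genes cannot be told apart with certainty, and the same holds for EMX2 with EMX2OS and for LHX5 with LHX5-AS1.

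SOX3 and SOX1, which help to hold neural cells in the progenitor state, were at 89.0 against 56.5 CPM and 75.5 against 51.2 CPM. TLE1, a corepressor of the Groucho family that works with SIX3 and HES proteins, was at 65.0 against 39.7 CPM. The remaining genes of the 12 were H1F0, a linker histone of cells that divide little, with a log2 ratio of 0.59, the nuclear envelope protein gene SYNE2 with 0.59, the protocadherin gene PCDH19 with 0.60 and the noncoding RNA LINC01551 with 0.53. Their depth-weighted log2 ratios, which were part of how they were ranked, were from 0.48 to 0.96.

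**Figure D2:**
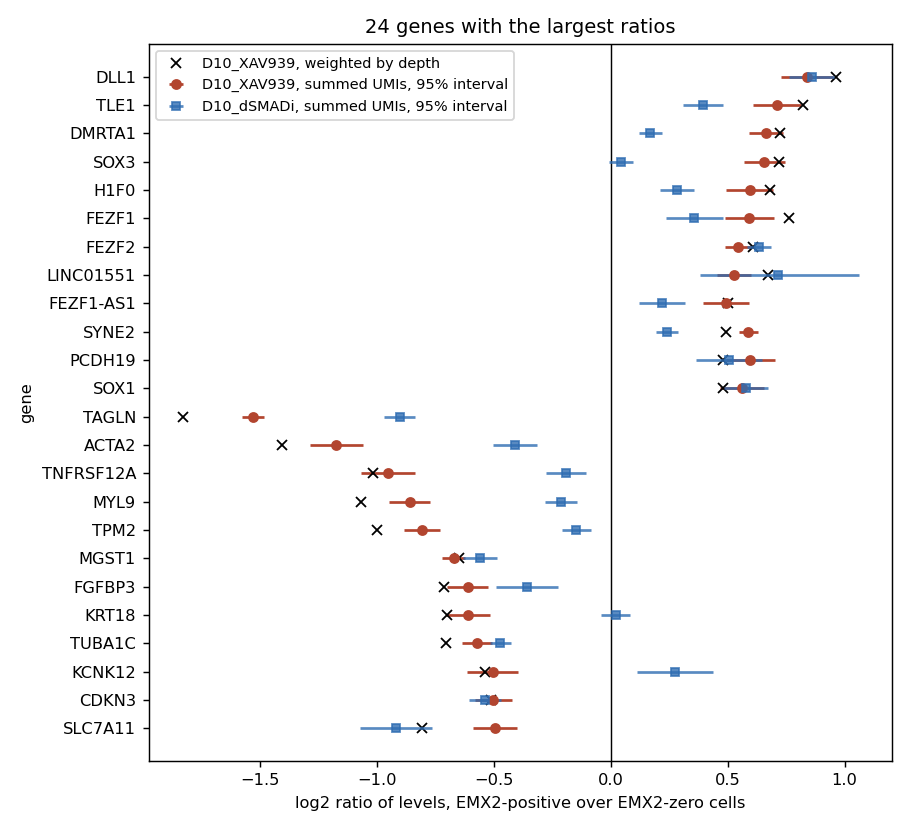
Log2 ratio of the level in EMX2-positive over EMX2-zero cells for the 12 most different genes on each side, at a level of 50 CPM or more. Red circles are D10_XAV939 with 95% counting intervals, crosses the same after weighting for depth and blue squares D10_dSMADi, where all 12 of the higher genes were higher too and KRT18 and KCNK12 were not lower.

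Among less abundant genes the ratios were larger. These were ranked in the same way over genes with at least 10 CPM over all 2279 cells, a level chosen after the values were seen. POU3F3, a POU-domain factor of cortical progenitors, was at 17.4 against 5.50 CPM, a log2 ratio of 1.66. ZIC1, a zinc-finger factor of the dorsal midline and septum, was at 38.3 against 14.0 CPM, a log2 ratio of 1.45 (1.29 to 1.61). LHX5, a LIM-homeobox factor of the anterior forebrain that in zebrafish induces Wnt antagonists, was at 24.3 against 9.03 CPM, a log2 ratio of 1.43 (1.23 to 1.63), and its antisense neighbor LHX5-AS1 at 23.4 against 10.2 CPM.

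After reduction to 10000 UMIs per cell, each of these genes was found in a minority of cells in each group. At the depth measured, a ZIC1 UMI was in 54.4% of EMX2-positive and 24.2% of EMX2-zero cells. For LHX5 these were 45.9% and 18.3%, and for POU3F3 39.3% and 11.2%. At 10000 UMIs per cell, a UMI of ZIC1 was in 29.4% of EMX2-positive and 12.1% of EMX2-zero cells, one of LHX5 in 20.9% and 7.96% and one of POU3F3 in 16.7% and 4.65%. At D0 these shares were 0.272% for ZIC1, 1.91% for LHX5 and 0.181% for POU3F3. EMX2OS was at 16.7 against 4.18 CPM, a log2 ratio of 2.00 (1.72 to 2.28). EMX1, the closest relative of EMX2 and a marker of the later cortex, was at 0.853 against 0.373 CPM, from 22 and 13 UMIs. At 10000 UMIs per cell, a UMI of EMX1 was in 0.917% of EMX2-positive and 0.552% of EMX2-zero cells, below the 5.17% of cells at D0. No background was estimated for EMX1, and no difference is read from so few UMIs.

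TAGLN, an actin-binding protein of smooth muscle, showed the largest lower ratio of the genes at 50 CPM. It was at 178.6 CPM in EMX2-positive cells (173.5 to 183.8) and 515.6 CPM in EMX2-zero cells (508.1 to 523.2), a log2 ratio of -1.53 (-1.58 to -1.48), and of -1.83 when depth-weighted. It was unevenly spread: the 10 cells with most TAGLN held 34.4% of its UMIs in EMX2-positive cells and 18.3% in EMX2-zero cells, and its highest cell had 359 and 605 UMIs. Without these 10 cells in each group the log2 ratio was -1.79. A TAGLN UMI was in 29.5% of EMX2-positive and 47.3% of EMX2-zero cells at 10000 UMIs per cell, and in 22.1% of cells at D0.

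Named for their lower ratios, 4 more genes of the contractile cytoskeleton were ACTA2, MYL9, TPM2 and CNN1. ACTA2, smooth muscle actin, was at 32.5 against 73.4 CPM (log2 ratio -1.18). MYL9, a myosin light chain, was at 56.2 against 102.1 CPM (-0.86), and TPM2, a tropomyosin, at 77.3 against 135.4 CPM (-0.81). CNN1, calponin, was at 15.4 against 37.4 CPM (-1.28). They were grouped as contractile after their values were seen, and no list of contractile genes was counted. TNFRSF12A, which is not of this kind, was at 32.4 against 62.7 CPM (-0.95). Of the 12 genes of a mesenchyme list, 0 reached 10 CPM. Their summed level was 13.9 CPM in EMX2-positive and 15.0 CPM in EMX2-zero cells. COL3A1, DCN, POSTN and PRRX1 were under 0.1 CPM in both, but other members were found in more cells. At the depth measured, a UMI of COL1A2 was in 15.3% of EMX2-positive and 10.0% of EMX2-zero cells. For LUM these shares were 9.63% and 7.09%, and for COL1A1 7.03% and 8.27%. They were not adjusted for depth.

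The rest of the 12 lower genes were of several kinds. MGST1, a membrane-bound glutathione transferase, was at 187.1 against 298.5 CPM (-0.67), and SLC7A11, the cystine transporter that feeds glutathione synthesis, at 53.6 against 75.5 CPM (-0.49). FGFBP3, which binds fibroblast growth factors, was at 60.2 against 92.0 CPM, the epithelial keratin gene KRT18 at 52.3 against 79.9 CPM and the potassium channel gene KCNK12 at 40.8 against 57.9 CPM. TUBA1C and CDKN3, which peak in dividing cells, had log2 ratios of -0.57 and -0.50. ANXA1, an annexin, had the lowest ratio of the genes at 10 CPM, with 41 UMIs in EMX2-positive and 794 in EMX2-zero cells (log2 ratio -3.84), but only 62 EMX2-zero cells held it and 79.2% of its UMIs were in 10 of them.

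Levels were also set out over cells grouped by the EMX2 count that remained at 10000 UMIs per cell, which sets all cells to the same depth for that choice. These are the same cells and the same measure that chose the genes, so the levels describe them and support nothing. Of the 12 higher genes, 7 were higher at each step, and TLE1, H1F0, SYNE2, PCDH19 and SOX1 were not, while 11 of the 12 lower genes were lower at each step and KRT18 was not. There were 1668 cells with 0, 344 with 1, 146 with 2 and 121 with 3 or more, with medians of 25791, 26836.5, 25890 and 20889 UMIs before reduction. TAGLN was at 442.0, 219.6, 136.4 and 58.2 CPM over these, ACTA2 at 62.6, 33.7, 28.1 and 20.2 CPM and SLC7A11 at 72.1, 57.0, 43.5 and 18.9 CPM. In the other direction, FEZF2 was at 155.1, 194.7, 212.8 and 259.8 CPM and SOX3 at 61.1, 76.1, 97.9 and 122.9 CPM. LHX5 was at 11.4, 24.4, 21.7 and 31.9 CPM, so its order broke between 1 and 2. SIX3, a gene of the most anterior neural plate, showed no order, at 115.7, 107.3, 124.3 and 99.8 CPM.

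**Figure D3:**
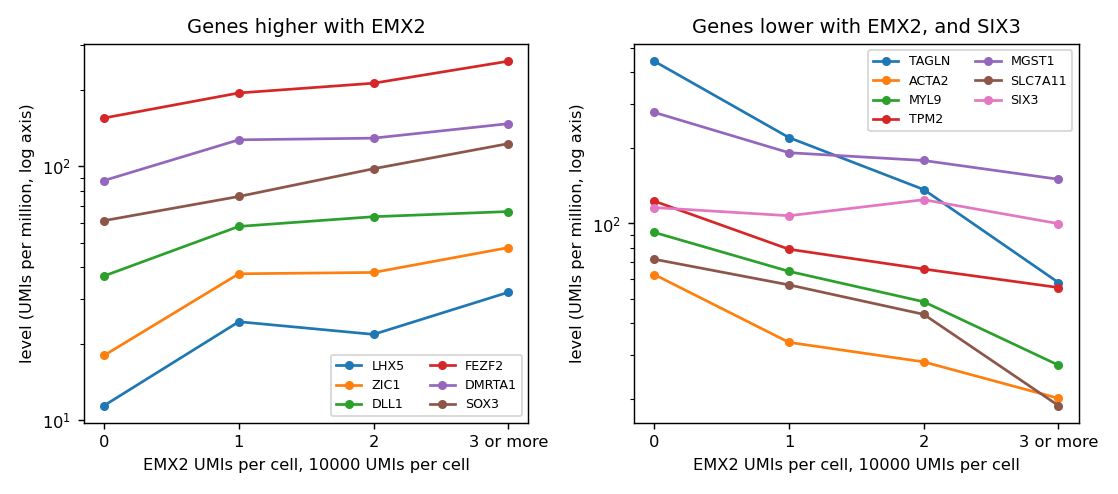
Levels of 13 genes in CPM on a log axis, in cells grouped by the EMX2 UMIs left after reduction to 10000 UMIs per cell (1668, 344, 146 and 121 cells). TAGLN went from 442.0 to 58.2 CPM and FEZF2 from 155.1 to 259.8 CPM, while SIX3 stayed between 99.8 and 124.3 CPM.

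Gene lists gave a wider view. Because few genes passed 1.5-fold, a fold of 1.25 and a level of 10 CPM over all cells were used for lists, chosen after seeing the values. Of 8430 genes, 157 were at least 1.25-fold higher in EMX2-positive cells (1.86%) and 138 at least 1.25-fold lower (1.64%), with a median log2 ratio of 0.01. Weighted for depth, 126 were higher and 228 lower, so the balance of directions turned.

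Of 17 dorsal telencephalon genes other than EMX2, 11 had the level, 8 were past 1.25-fold higher (PAX6, LHX2, GLI3, DMRTA1, DMRTA2, FEZF1, FEZF2 and SP8) and 0 were lower, with a median log2 ratio of 0.44. Weighted for depth, 7 were, without PAX6. PAX6, a factor of neural progenitors, was at 170.8 against 132.7 CPM, LHX2, a selector of cortical identity, at 121.8 against 90.1 CPM and GLI3, which limits ventral fates, at 177.3 against 126.9 CPM. NR2F1 and NR2F2, nuclear receptors of caudal cortex, had log2 ratios of 0.09 and -0.01. TBR1 and EOMES, of later cortical neurons and their precursors, were under 0.2 CPM in both groups.

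Cortical hem and dorsal midline genes were mostly at low levels. Of 24, 5 had the level and 2 were higher, ZIC1 as above and the ligand gene WNT2B at 19.6 against 13.8 CPM, while 14 were under 1 CPM in EMX2-positive cells. WNT8B had 2 UMIs in EMX2-positive and 0 in EMX2-zero cells, which is too few for a ratio. Of 19 ventral telencephalon genes, 1 had the level, PTCH1, and 18 were under 1 CPM. DLX1 and DLX2, factors of ventral progenitors, had 10 and 17 UMIs over all 654 cells and 2 and 8 over the EMX2-zero cells.

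Anterior neural and optic field genes were divided. Of 19, 11 had the level, 3 were higher (LHX5, SOX1 and SOX3) and 3 lower, namely RAX, the factor of the eye field, at 28.9 against 39.7 CPM (-0.46), VAX1, of the ventral optic and preoptic region, at 13.7 against 18.3 CPM (-0.42), and the growth factor gene FGF8 at 18.82 against 23.99 CPM (-0.35). Weighted for depth, 4 were higher and 2 lower, and FGF8 no longer passed, at -0.26. SIX6, another eye-field factor, lay below the level with 50 UMIs in EMX2-positive and 201 in EMX2-zero cells (-1.57). A SIX6 UMI was in 0.459% and 3.94% of cells at 10000 UMIs per cell. OTX2, a factor of the forebrain and midbrain, was at 141.7 against 118.1 CPM, a log2 ratio of 0.26 that did not reach 1.25-fold.

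Of 18 β-catenin feedback targets, 5 had the level and 0 passed 1.25-fold in either direction, with a median log2 ratio of 0.09. AXIN2, a direct target below that level, was at 4.19 against 2.69 CPM. Of 19 carriers, receptors and secreted modulators, 8 had the level and 0 passed. WLS, the carrier that Wnt ligands need for secretion, was at 23.8 against 20.7 CPM, and the antagonist SFRP2 at 572.3 against 586.7 CPM. Of the genes named by the study for XAV939, DLK1 was at 4376 against 4343 CPM and PIK3R3 at 234.7 against 213.1 CPM. GAD1, GAD2, NEUROG1 and NEUROD1 were each under 1 CPM in both groups.

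Of 16 Notch and HES genes, 11 had the level, and NOTCH1, DLL1, JAG1 and LFNG were higher and HES1 lower. HES1, a repressor that Notch induces, was at 31.8 against 42.4 CPM, while its relative HES5 was at 949.8 against 945.7 CPM. Weighted for depth, 2 were past 1.25-fold higher, DLL1 and LFNG, and 0 lower. Of 23 proneural and early neuronal genes, 7 had the level, DCX was higher and STMN4 lower. STMN2, which the rule limited, was at 6.59 against 5.02 CPM. GADD45G, a stress-sensor gene often found in neuronal precursors, was at 12.2 against 3.60 CPM.

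Genes of the cell cycle moved in part. Of 24 S-phase genes, 0 passed 1.25-fold, with a median log2 ratio of -0.03. Of 24 G2 and M genes, 4 were lower (CCNB1, CCNB2, AURKA and CDC20) and 0 higher, with a median of -0.16, and 7 were lower with a median of -0.26 when depth-weighted. Of 12 FGF-ERK feedback genes, 8 had the level, and SPRY2 and ETV4 were lower. Of 18 genes of early response and stress, 12 had the level and JUN, ATF3 and DDIT3 were lower; their part in the other differences was not tested. Of 12 BMP-SMAD feedback genes, 5 had the level and 0 passed. Among lists of other cell types, pluripotent cells had 9 of 12 genes at the level with 0 past 1.25-fold, neural crest had 2 of 11 (both higher, SOX9 among them, with SOX10 under 0.1 CPM), placode and surface ectoderm 4 of 15 (KRT19 higher, KRT8 and KRT18 lower) and midbrain, hindbrain and spinal cord 1 of 19.

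**Figure D4:**
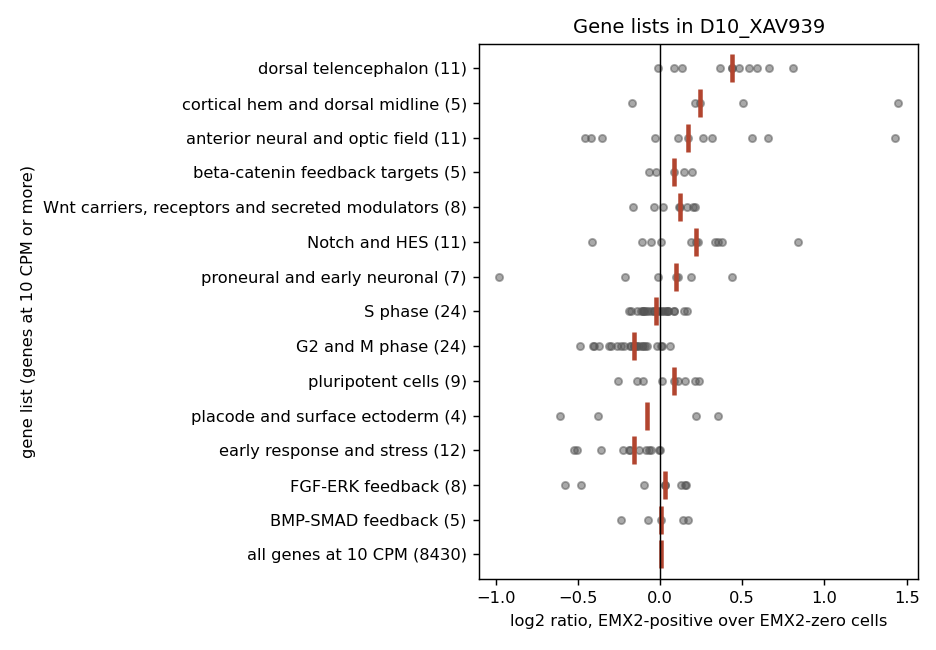
Log2 ratio of EMX2-positive over EMX2-zero cells for the genes of each list with at least 10 CPM (gray points, number in brackets) with the list's median (red mark), for lists with at least 4 such genes. The dorsal telencephalon list has a median of 0.44, G2 and M phase one of -0.16, and all 8430 genes one of 0.01.

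The genes that differed most between the conditions at day 10 were set out in the EMX2-positive cells. At least 4-fold apart between all cells of D10_dSMADi and D10_XAV939 at 50 CPM were 7 genes higher with dSMADi alone (WLS, WNT2B, CA4, LHX5-AS1 and NRIP3 among them) and 6 higher with XAV939 (TAGLN, FZD5, IGFBP3, LINC01551 and RHOU among them), so their difference between conditions, over cells that include the 654, is what chose them, and the levels describe the cells without placing them. The 7 dSMADi-high genes summed to 188.9 CPM in the EMX2-positive cells (183.7 to 194.3) and 153.7 CPM in the EMX2-zero cells, against 1033 CPM in the EMX2-positive cells of D10_dSMADi and 930.0 CPM in its EMX2-zero cells. Of the 654 cells, 12 reached the 5th percentile of the EMX2-positive cells of D10_dSMADi for this sum.

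The 6 XAV939-high genes summed to 1006 CPM in EMX2-positive and 1292 CPM in EMX2-zero cells, against 230.7 CPM in the EMX2-positive cells of D10_dSMADi. This order turned without TAGLN: the other 5 summed to 827.2 and 776.4 CPM. Of the 654 cells, 153 were at or below the 95th percentile of the EMX2-positive cells of D10_dSMADi for the 6 genes, and 3 were past both of these percentiles. LINC01551 was at 124.8 CPM in EMX2-positive cells with XAV939 and 5.82 CPM in those without, ZIC1 at 38.3 and 3.19 CPM and WLS at 23.8 and 267.3 CPM.

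**Figure D5:**
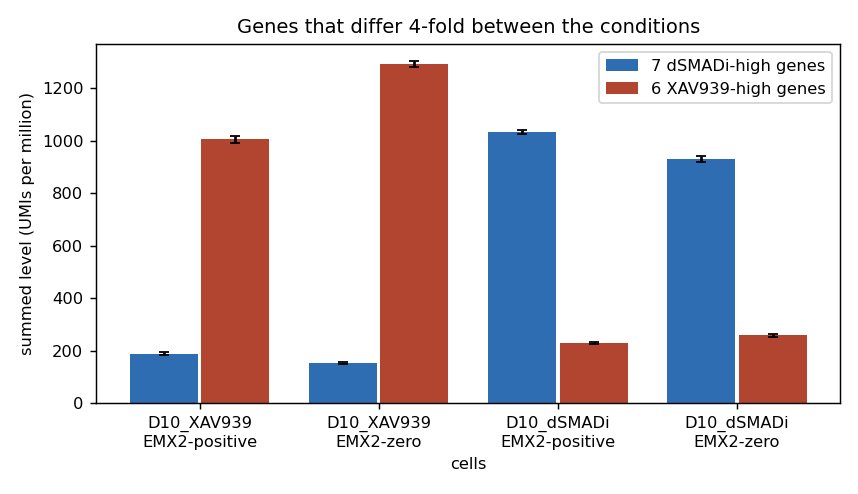
Summed level, in CPM with exact Poisson intervals, of the 7 genes at least 4-fold higher in D10_dSMADi (blue) and the 6 at least 4-fold higher in D10_XAV939 (red), in the EMX2-positive and EMX2-zero cells of both conditions. The EMX2-positive cells of D10_XAV939 stood at 188.9 and 1006 CPM in these genes, which were chosen for their difference between the conditions.

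The same contrast was then made in the other conditions, which share no cells with D10_XAV939. Ratios and counts there are of summed UMIs, not adjusted for depth, unless called depth-weighted. In D10_dSMADi, with 1241 EMX2-positive and 835 EMX2-zero cells, all 12 higher genes were higher (48.3% of the 3372 genes were) and 10 of the 12 lower genes were lower (51.7% were), with median log2 ratios of 0.37 and -0.38 against 0.59 and -0.64 with XAV939. DLL1 had a log2 ratio of 0.86 there and FEZF2 of 0.63, like those with XAV939. For SOX3 it was 0.04 (-0.01 to 0.10) against 0.66, for DMRTA1 0.17 against 0.66, for TAGLN -0.90 against -1.53 and for KRT18 0.02 against -0.61. These are values of 1 culture each, and the differences between the conditions were not tested. In D5_dSMADi 10 and 11 of the 12 had the same sign (57.5% and 42.5% of genes), and in D5_XAV939, where only 87 cells were EMX2-positive, 11 and 8 had it (57.6% and 42.4%). DLL1, the first of the higher genes, had log2 ratios of -0.044 (-0.24 to 0.15) in D5_dSMADi and -0.026 (-0.40 to 0.32) in D5_XAV939. TAGLN, the first of the lower genes, was at -1.16 in D5_dSMADi but at 0.45 (0.25 to 0.63) in D5_XAV939, or 0.085 when depth-weighted. In D5_XAV939, MYL9 and KRT18 were at 0.25 and 0.26, and SLC7A11 was also higher. LHX5 had log2 ratios of 1.43 in D10_XAV939, 1.28 in D10_dSMADi, 0.55 in D5_dSMADi and 0.32 in D5_XAV939.

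Lists differed in the same contrast, again from summed UMIs. In D10_dSMADi, 3 dorsal telencephalon genes of the 11 were past 1.25-fold higher (1.17% of the 8430 genes were), with a median log2 ratio of 0.26, and 12 of the 24 G2 and M genes were lower (1.46%), with a median of -0.32. Early response genes were lower for 7 of 12.

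EMX2-positive cells were found in every cluster of the condition. Cells of D10_XAV939 clustered without EMX2 and EMX2OS fell into 4 clusters, with 131 of 538 in cluster 0, led by UBE2C, AURKA and PLK1 of mitosis, 254 of 784 in cluster 1, led by histone genes and RRM2 of S phase, 238 of 763 in cluster 2, led by IGFBP3, GADD45G and TUBB3, and 31 of 194 in cluster 3, led by noncoding genes. Depth differed, with medians of 33300.5, 30221.5, 19470 and 18187.5 UMIs, and at 10000 UMIs per cell an EMX2 UMI was in 21.7% (18.3 to 25.5), 25.5% (22.5 to 28.7), 33.6% (30.2 to 37.0) and 19.6% (14.3 to 25.9) of their cells. The EMX2 level was 64.4 CPM in cluster 2 and between 32.2 and 41.9 CPM in the others. LINC01551, LHX5 and DLL1 were also among the leading genes of cluster 2. DLL1 was at 66.1 CPM there and between 32.5 and 42.2 CPM in the others. The leading genes of cluster 3 also included the coding genes PTTG1 and CD24. Within clusters, 12, 12, 12 and 11 of the 12 higher genes were higher in EMX2-positive than in EMX2-zero cells of the same cluster, beside 50.8%, 52.5%, 49% and 47.1% of the 3372 genes, and 12, 10, 10 and 11 of the 12 lower genes were lower, beside 49.2%, 47.5%, 51% and 52.9%. The genes were chosen on the same cells, so these counts describe them only. TUBA1C and CDKN3, the genes of dividing cells, were not lower in clusters 1 and 2, where TUBA1C had log2 ratios of 0.05 (-0.08 to 0.18) and 0.10 (-0.12 to 0.33) and CDKN3 of 0.10 (-0.04 to 0.25) and 0.21 (-0.11 to 0.53), with 0 inside each counting interval.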

How the data were processed

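The authors sequenced 10× Genomics 3′ libraries, aligned reads to GRCh38 and deposited counts of UMIs per gene and barcode from Cell Ranger (6.1.2 in the headers of the tagged conditions, 3.1.0 in the header of D22), not normalized and with no cells filtered out after calling. Counting settings are not given in the sources used here. The members, gene lists and rules were chosen with earlier results of these data known. Cells were kept at 10000 UMIs, 3000 genes and a mitochondrial share under 10%; D22 to D26 used the study's own limits. UMIs were summed over a group of cells and divided by the group's total (CPM), with exact Poisson intervals. Ratios had exact binomial intervals and shares exact Clopper-Pearson intervals, all at 95%, for counting error only and too narrow where few cells hold a gene. With 1 culture per condition there was no test and no p-value. Genes with at most 3 UMIs in both groups had no ratio. EMX2-zero cells were weighted to 5 depth bins as an alternative.

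Named genes were the 12 highest and the 12 lowest log2 ratios at 50 CPM or more, ranked by the smaller of the summed and depth-weighted ratio, without EMX2, STMN2 and mitochondrial genes; EMX2, EMX2OS, EMX1 and STMN2; genes the study names for XAV939; and members of 18 gene lists. Lists are given as counts with some members. Other named genes were chosen after their values were seen. Some of the genes so named are left out of the text. Clusters used scanpy 1.11.5, 2000 variable genes, 30 components, 20 neighbors and Leiden resolution 0.3; doublets were scored with Scrublet, whose automatic threshold marked 6 of 2352 cells (0.255%), so 0.25 was used. On simulated counts of 3272 genes for the EMX2-positive against EMX2-zero contrast, with 200 genes changed 2-fold in each of 20 simulations, true ratios lay inside the interval for 95.3% of changed and 95.1% of unchanged genes. In the depth-only case of the simulation, the median log2 ratio was 0.25 when summed and -0.00096 when depth-weighted. The summed ratio thus carried the simulated depth difference, which the interval does not cover. In the measured contrast, the median log2 ratio over 8430 genes at 10 CPM was 0.0082 when summed and -0.0064 when depth-weighted. Gene positions are from GENCODE v44, which matched all 351 named and list genes by identifier. The ratios within clusters, the grouping by EMX2 count after reduction to 10000 UMIs, and the sums and ratios without TAGLN or without the highest 10 cells were added after seeing the data. Alternatives are given in the closing section.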

Additional observations from a re-analysis of the deposited data

Results flagged for a closer look

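FGF8 was the named or listed gene, among those with at least 5 CPM in both conditions, whose ratio passed 1.25-fold in opposite directions at day 10. Its log2 ratio of EMX2-positive over EMX2-zero cells was -0.35 in D10_XAV939, or -0.26 when depth-weighted, and 0.38 in D10_dSMADi. Each condition is 1 culture, and the difference was not tested.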

How the results depend on the processing

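No paired analysis was possible because each condition is 1 culture without replicate, and no replicate could be left out. The share of EMX2-positive cells, 28.7%, was 44.3% with 1 UMI, 20.2% with 3, 11.7% with cells thinned to 10000 UMIs, 26.1% with the study's complexity limits and 25.8% without the filter on cells. The count of genes 1.5-fold higher, 9, was 2 against cells of 0 or 1 UMI, 14 after thinning, which left 267 EMX2-positive and 1668 EMX2-zero cells, and 27 at 10 CPM, and the count lower, 8, was 13 when depth-weighted, 24 after thinning and 39 at 10 CPM. The dSMADi-high level, 188.9 CPM, was 2508 CPM with genes 2-fold apart, 174.9 CPM as a median over cells and 197.3 CPM with 3 UMIs; the XAV939-high level, 1006 CPM, was 8098, 839.7 and 1028 CPM. Of 168 ratios of the 24 named genes over 7 alternatives, 0 changed sign, while 94 were classed as the same in size and 74 as moved. The genes were chosen on the same cells, and the ranking asked for the same sign when depth-weighted. The count of signs therefore describes them only. Of 96 ratios within clusters, 70 were classed as moved. Within clusters, 2 genes past 1.5-fold changed sign, both in cluster 3, with log2 ratios of -0.077 for FEZF1 and 0.036 for TNFRSF12A, and TUBA1C and CDKN3, under 1.5-fold, were not lower in clusters 1 and 2, with 0 inside the counting interval of each of these ratios. The remaining alternatives for the share and counts, such as removal of doublets, moved them by less than these.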
